A study of Rattus norvegicus with 9 samples.

Results

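The non-clustered protocadherins are single genes of the cadherin superfamily that lie outside the large protocadherin gene clusters. Those described here are Pcdh1, Pcdh7, Pcdh8, Pcdh9, Pcdh10, Pcdh17, Pcdh18, Pcdh19 and Pcdh20, given as a list of names and kept where both all-gene tables hold them. All 9 were found, among 26854 genes in each table. The members were chosen by family name with the fold changes of both knockdowns over siNT in view, so those fold changes and the calls that rest on them are given here as a description, and no test is put on the list.

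RNA was sequenced from primary cultures of pinealocytes, the melatonin-producing cells, of adult Sprague-Dawley rats. The 9 libraries formed 3 groups of 3, transfected with siBsx, an siRNA against the homeodomain factor Bsx, with siLhx4, an siRNA against the LIM-homeodomain factor Lhx4, or with siNT, a non-targeting siRNA, each at 40 nM. Each target was met by 1 siRNA, the cells were harvested on the third day, and the labels do not say whether the replicates came from separate cultures or animals. The p-values and SEs therefore rest on the spread between these libraries, which may be technical. They come from the authors' DESeq2 tests, whose dispersions also draw on other genes, so an SE is not a single gene's own spread. All groups shared the papain dissociation, the serum-containing medium and the lipid transfection.

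Protocadherins are single-pass membrane proteins. Their extracellular cadherin repeats bind the same protocadherin on a neighbouring cell, more weakly than classical cadherins do, and their cytoplasmic tails recruit signalling and actin-regulating proteins. In the developing nervous system of vertebrates they take part in cell sorting, axon growth and synapse formation, and each is made by its own pattern of neurons. Of the genes described here, Pcdh1, Pcdh7 and Pcdh9 belong to the delta-1 subfamily, and their tails carry a docking site for protein phosphatase PP1α. The delta-2 subfamily holds Pcdh8, Pcdh10, Pcdh17, Pcdh18 and Pcdh19, several of which bind the WAVE complex that drives branched actin assembly. Pcdh20 is usually placed apart from these subfamilies.

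Each siRNA lowered its target. In siLhx4 the 3 libraries had 3420, 3634 and 3551 normalized counts of Lhx4, against 18963, 18331 and 19156 in siNT, without overlap. Bsx stood at 0.207 of its siNT level with siBsx in the authors' deposited table. It stood at 0.552 of its siNT level with siLhx4 in the authors' deposited table. Lhx4 was 1.10-fold higher with siBsx than in siNT in the authors' deposited table, at a DESeq2 adjusted p of 0.0225. Values per library covered 14 genes, none of them a protocadherin. Protocadherin levels are therefore group means of normalized counts, derived from the deposited mean and fold change. They carry no SD, and they depend on transcript length, so they are not compared between genes.

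Of the 9 protocadherins, 8 had a higher mean with each siRNA than in siNT, and Pcdh1 had a lower one. With siBsx, 5 of the 8 protocadherins tested were called higher and 1 lower at an adjusted p of 0.05, where 7.59% of all 14876 genes tested were called higher and 9.61% lower. With siLhx4, 6 of the 8 were called higher and 1 lower, where 8.07% of all genes tested were called higher and 9.59% lower. Both comparisons use the same siNT libraries, so a low value in siNT raises both. The median log2 fold change over the 8 tested was 0.99 with siBsx and 0.75 with siLhx4, against 0.00 over all genes tested in each comparison. Over all 9, with the untested Pcdh20, the median was 1.07 with siBsx and 0.90 with siLhx4. Pcdh20, at a mean of 9.18 normalized counts in the siBsx table, was below the authors' filter on low counts and received no adjusted p.

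**Figure D1:**
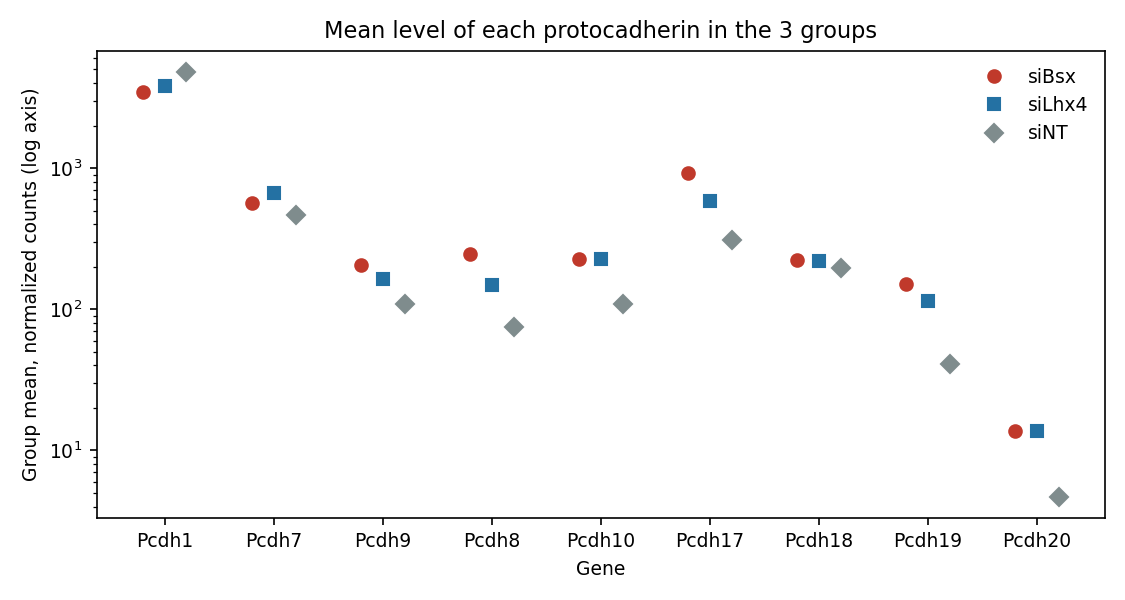
Group means in normalized counts, on a log axis, of each protocadherin in siBsx (circles), siLhx4 (squares) and siNT (diamonds). The siNT mean is the lowest of the 3 for every gene except Pcdh1, where it is the highest at 4792.

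Within the delta-2 subfamily, Pcdh19 had the largest fold changes. Pcdh19 is an X-linked gene known in humans for an epilepsy seen when cells with and without the protein are mixed, and its product associates with N-cadherin. It had a mean of 149.8 normalized counts in siBsx, 114.8 in siLhx4 and 40.8 in siNT. In the authors' deposited table it was 3.67-fold higher with siBsx, a log2 fold change of 1.88 ± 0.27 (SE), and ranked 4 from the top among all genes tested. With siLhx4 it was 2.82-fold higher in the authors' deposited table, a log2 fold change of 1.496 with an SE of 0.27 computed from the deposited p, and ranked 17 from the top.

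Pcdh8, also called arcadlin, was first described in rat hippocampus as a gene induced by neuronal activity, and its product promotes the internalization of N-cadherin. Its mean was 244.4 normalized counts in siBsx, 149.4 in siLhx4 and 75.5 in siNT. The authors' deposited table put it 3.24-fold higher with siBsx (log2 fold change 1.70 ± 0.24, SE) and 1.97-fold higher with siLhx4 (0.98, SE 0.25). It ranked 9 from the top with siBsx and 105 from the top with siLhx4.

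Pcdh17, which in mice takes part in axon extension and synapse development, had the smallest SE of the 5 delta-2 genes. Its mean was 921.1 normalized counts in siBsx, 580.5 in siLhx4 and 311.0 in siNT. The authors' deposited table put it 2.96-fold higher with siBsx (log2 fold change 1.57 ± 0.13, SE) and 1.87-fold higher with siLhx4 (0.90, SE 0.14). Both changes were several times their SE.

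Pcdh10, which is needed for the growth of striatal axons in mice and binds Nckap1 of the WAVE complex, had nearly equal means in the knockdowns. They were 228.5 normalized counts in siBsx and 226.6 in siLhx4, against 108.5 in siNT. In the authors' deposited table it was 2.11-fold higher with siBsx (log2 fold change 1.07 ± 0.22, SE) and 2.09-fold higher with siLhx4 (1.06, SE 0.22).

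Pcdh18, whose product binds the adaptor Dab1 in mice, did not pass in either comparison. Its mean was 221.7 normalized counts in siBsx, 221.1 in siLhx4 and 194.6 in siNT. The 95% interval of its fold change, from the SE, ran from 0.866 to 1.499 with siBsx and from 0.862 to 1.48 with siLhx4. Fold changes of the size seen for Pcdh8, Pcdh10, Pcdh17 and Pcdh19 lie outside both intervals.

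The delta-1 genes described here did not move one way. Pcdh1, an adhesion protein of epithelia and neurons, was the one protocadherin called lower. Its mean was 3441 normalized counts in siBsx, 3792 in siLhx4 and 4792 in siNT. In the authors' deposited table Pcdh1 fell by 28.2% with siBsx and fell by 20.9% with siLhx4, at log2 fold changes of -0.48 ± 0.067 (SE) and -0.34 (SE 0.066). It had the smallest SE of the 9 genes in both comparisons.

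Pcdh9, a neuronal protocadherin, had a mean of 204.8 normalized counts in siBsx, 164.0 in siLhx4 and 109.2 in siNT. It was 1.88-fold higher with siBsx by the authors' deposited table (log2 fold change 0.91 ± 0.22, SE) and 1.51-fold higher with siLhx4 (0.59, SE 0.22). The siLhx4 call lay close to the threshold, where the authors' deposited table gives a DESeq2 adjusted p of 0.0448.

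Pcdh7, whose product guides retinal axons in Xenopus and binds PP1α and SET, had its highest mean in siLhx4. It stood at 567.6 normalized counts in siBsx, 664.0 in siLhx4 and 468.0 in siNT. In the authors' deposited table it was called with siLhx4, at 1.42-fold (log2 fold change 0.51, SE 0.14). With siBsx it was 1.21-fold in the authors' deposited table and did not pass, with a 95% interval from 0.998 to 1.47.

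Pcdh20 was barely detected, at 13.7 normalized counts in siBsx, 13.7 in siLhx4 and 4.71 in siNT. The authors' deposited table lists it at 2.90-fold with siBsx (log2 fold change 1.53 ± 0.94, SE) and 2.92-fold with siLhx4. The 95% interval of the siBsx value ran from 0.81-fold to 10.4-fold. Both equal levels and the fold change of Pcdh19 lie within this interval, so a difference was not detectable at this depth.

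**Figure D2:**
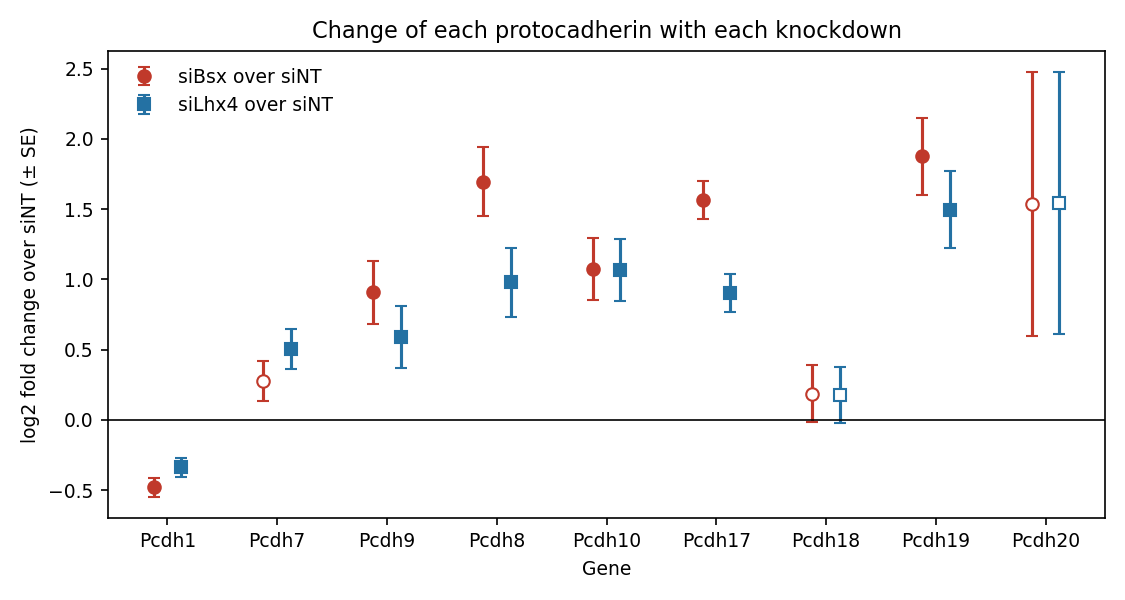
Log2 fold change over siNT, with its SE, of each protocadherin with siBsx (circles) and siLhx4 (squares). Filled symbols passed an adjusted p of 0.05 in the authors' deposited tables, and open symbols (Pcdh7 with siBsx, Pcdh18 and Pcdh20) did not pass or were not tested.

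The knockdowns were also set against each other, which removes the shared siNT. The log2 ratio of siBsx over siLhx4 was taken as the difference of both fold changes, with an SE rebuilt from the dispersion implied by the siBsx table. Pcdh8 was 1.64-fold higher in siBsx than in siLhx4, a log2 ratio of 0.72 ± 0.23 (SE), and Pcdh17 was 1.59-fold higher, a log2 ratio of 0.67 ± 0.13 (SE). The 95% intervals of these ratios ran from 1.20 to 2.26 for Pcdh8 and from 1.33 to 1.89 for Pcdh17. For Pcdh19 (1.30-fold) and Pcdh9 (1.24-fold) the intervals included equal levels, from 0.923 to 1.84 and from 0.926 to 1.67.

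Pcdh10 had a ratio of 1.01 with an interval from 0.753 to 1.35, and Pcdh18 had a ratio of 1.01 with an interval from 0.767 to 1.32. Pcdh7 leaned to siLhx4, at a ratio of 0.854 with an interval from 0.704 to 1.04. Pcdh1 stood at 0.907, and its interval from 0.828 to 0.994 ended just below equal levels. Among the 8 tested genes, Pcdh8 and Pcdh17 had the widest gaps between siBsx and siLhx4 on the log2 scale.

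**Figure D3:**
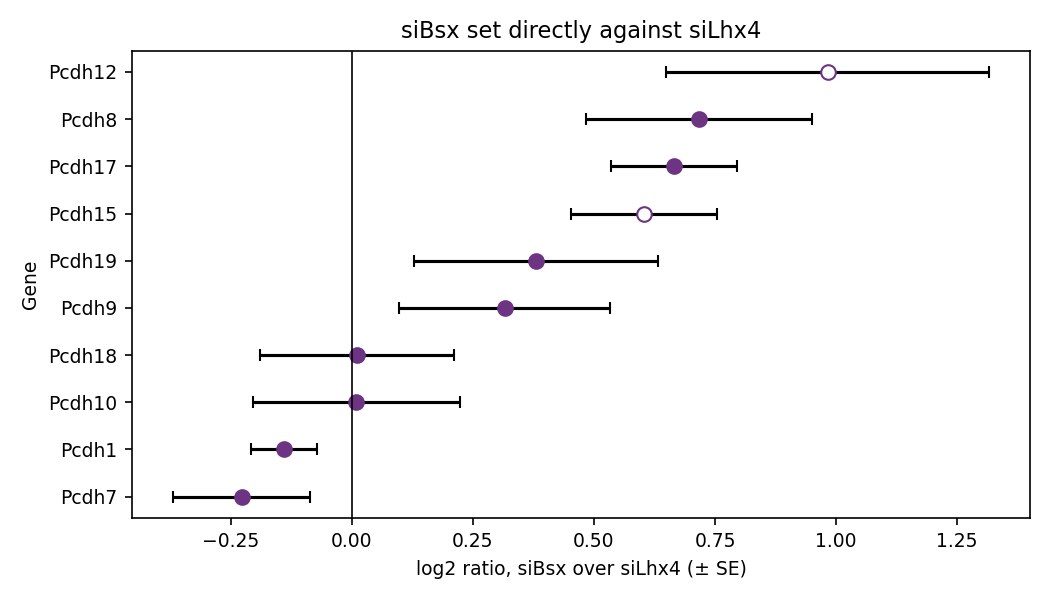
Log2 ratio of siBsx over siLhx4, with its rebuilt SE, for the 8 tested protocadherins of the list (filled) and for Pcdh12 and Pcdh15 (open). Among the filled symbols, Pcdh8 at 0.72 and Pcdh17 at 0.67 lie farthest to the right.

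The RefSeq promoter table (build GRCr8, while the authors' processing used rn6) held 8 of the 9 genes, and Pcdh19 was not among them. Shown here are the 250 bases before the start site of Pcdh8, Pcdh17, Pcdh9 and Pcdh10, the genes in that table that were called higher with both siRNAs. Capitals mark TAAT, the core recognised by many homeodomains, and TGACG, the short form of the cAMP response element, each searched on both strands (also as ATTA and CGTCA). The regions are chr15:61612091-61612340 on the minus strand for Pcdh8, chr15:66632892-66633141 on the plus strand for Pcdh17, chr15:76643953-76644202 on the minus strand for Pcdh9 and chr2:130553188-130553437 on the plus strand for Pcdh10.
Pcdh8: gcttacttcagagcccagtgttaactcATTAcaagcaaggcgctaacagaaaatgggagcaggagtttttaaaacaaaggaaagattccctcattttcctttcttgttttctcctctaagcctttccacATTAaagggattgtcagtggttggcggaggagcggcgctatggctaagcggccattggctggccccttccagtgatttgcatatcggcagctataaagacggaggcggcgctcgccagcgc
Pcdh17: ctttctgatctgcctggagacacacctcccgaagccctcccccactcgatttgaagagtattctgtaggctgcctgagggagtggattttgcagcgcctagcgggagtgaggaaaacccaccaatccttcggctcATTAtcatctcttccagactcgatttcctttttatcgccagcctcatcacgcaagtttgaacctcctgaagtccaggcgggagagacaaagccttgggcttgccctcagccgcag
Pcdh9: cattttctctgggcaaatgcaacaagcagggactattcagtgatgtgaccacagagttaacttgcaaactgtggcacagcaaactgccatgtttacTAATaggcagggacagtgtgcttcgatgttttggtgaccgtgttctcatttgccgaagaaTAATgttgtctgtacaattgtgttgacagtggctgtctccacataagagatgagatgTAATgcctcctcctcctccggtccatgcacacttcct
Pcdh10: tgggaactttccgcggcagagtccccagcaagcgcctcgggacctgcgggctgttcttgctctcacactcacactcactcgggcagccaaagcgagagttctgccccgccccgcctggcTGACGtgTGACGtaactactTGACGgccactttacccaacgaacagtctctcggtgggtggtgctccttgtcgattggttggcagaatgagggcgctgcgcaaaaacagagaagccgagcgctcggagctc
TAAT was found at 2 places in the Pcdh8 window, 1 in that of Pcdh17 and 3 in that of Pcdh9, and 1 in the Pcdh20 window, which is not shown. In all, 4 of the 8 windows held it, beside 56.3% of 27457 promoter windows of the same length. The longer TAATTA, which contains TAAT, was in none of the 8 windows and in 4.94% of all. TGACG was found at 3 places in the Pcdh10 window and in no other of the 8, and 19.0% of all windows held it. A match is a string of letters in this window, not a site shown to be bound.

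The windows also differed in base composition. The share of G and C was 76.8% for Pcdh1, the gene called lower, and 46.0% to 66.0% for the other 7, against a median of 52.0% over all promoters in the table.

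Of the 9 genes, 4 lie in a row on rat chromosome 15 in the RefSeq order, as Pcdh8, Pcdh17, Pcdh20 and Pcdh9. Between them RefSeq lists 3, 3 and 1 protein-coding genes. The nearest tested genes on either side of the protocadherins came to 13 distinct genes. From 0 to 21 other protein-coding genes, untested or themselves on the protocadherin list, lay between. Of the 13, 3 were called higher and 3 lower with siBsx, and 2 higher and 2 lower with siLhx4. Over all genes tested, 7.59% were called higher and 9.61% lower with siBsx, and 8.07% and 9.59% with siLhx4. Their log2 fold changes ran from -0.76 to 0.88 with siBsx and from -0.45 to 0.28 with siLhx4 in the authors' deposited tables. The formin Diaph3, next to Pcdh17, had a log2 fold change of -0.30 with siBsx and 0.13 with siLhx4 in the authors' deposited tables, a gene named after its values were seen. The transcription factor Dach1, the next tested gene after Pcdh9 and also named after its values were seen, stood at 0.88 with siBsx and -0.04 with siLhx4 in the authors' deposited tables.

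Other protocadherins and large cadherins were counted from a list of 20 genes, of which 19 were in the tables and 14 were tested. With siBsx 3 passed higher and 3 lower, with a median log2 fold change of 0.02 over those tested. With siLhx4 5 passed higher and 0 lower, with a median of 0.23. The shares of all genes tested were 7.59% higher and 9.61% lower with siBsx, and 8.07% and 9.59% with siLhx4. Pcdh15, the tip-link cadherin of hair cells and a photoreceptor protein, had means of 724.1 normalized counts in siBsx, 475.8 in siLhx4 and 352.7 in siNT. In the authors' deposited tables Pcdh15 rose by 1.04 with siBsx (DESeq2 adjusted p = 3.28e-10) and by 0.43 with siLhx4 (DESeq2 adjusted p = 0.0285) on the log2 scale. Fat4, a giant cadherin of planar polarity, rose by 0.56 with siBsx and by 0.56 with siLhx4 in log2 terms by the authors' deposited tables.

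The calcium-binding cadherin Clstn1 rose by 0.21 with siBsx and by 0.77 with siLhx4 in log2 terms by the authors' deposited tables. The 3 large cadherins that were lower with siBsx were Celsr1, Cdhr1 and Fat1. The planar polarity cadherin Celsr1 fell by 1.21 with siBsx in log2 terms, where the authors' deposited table gives a DESeq2 adjusted p of 1.09e-14, and stood at 0.09 with siLhx4 without passing. The photoreceptor cadherin Cdhr1 fell by 0.43 with siBsx and rose by 0.40 with siLhx4 in log2 terms by the authors' deposited tables. Fat1 likewise fell by 0.38 with siBsx and rose by 0.28 with siLhx4 there. Pcdh12, a protocadherin of endothelium, stood at 0.86 with siBsx and -0.12 with siLhx4 in log2 terms by the authors' deposited tables and passed in neither. Set directly against siLhx4, siBsx had log2 ratios of 0.98 ± 0.33 (SE) for Pcdh12 and 0.60 ± 0.15 (SE) for Pcdh15.

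The clustered protocadherins, which share constant exons or close sequence similarity and whose counts are therefore uncertain, had 34 entries, of which 29 were tested. None of the 29 passed with siBsx by the authors' DESeq2 test, where 2 had an unadjusted p under 0.05, and none passed by their Bonferroni adjustment. With siLhx4 0 passed higher and 2 lower, Pcdhga10 at -0.38 and Pcdhgb7 at -0.35 in log2 terms by the authors' deposited table. Of all genes tested, 17.2% passed in either direction with siBsx and 17.7% with siLhx4. The median log2 fold change over the 29 was -0.10 with siBsx and -0.15 with siLhx4.

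**Figure D4:**
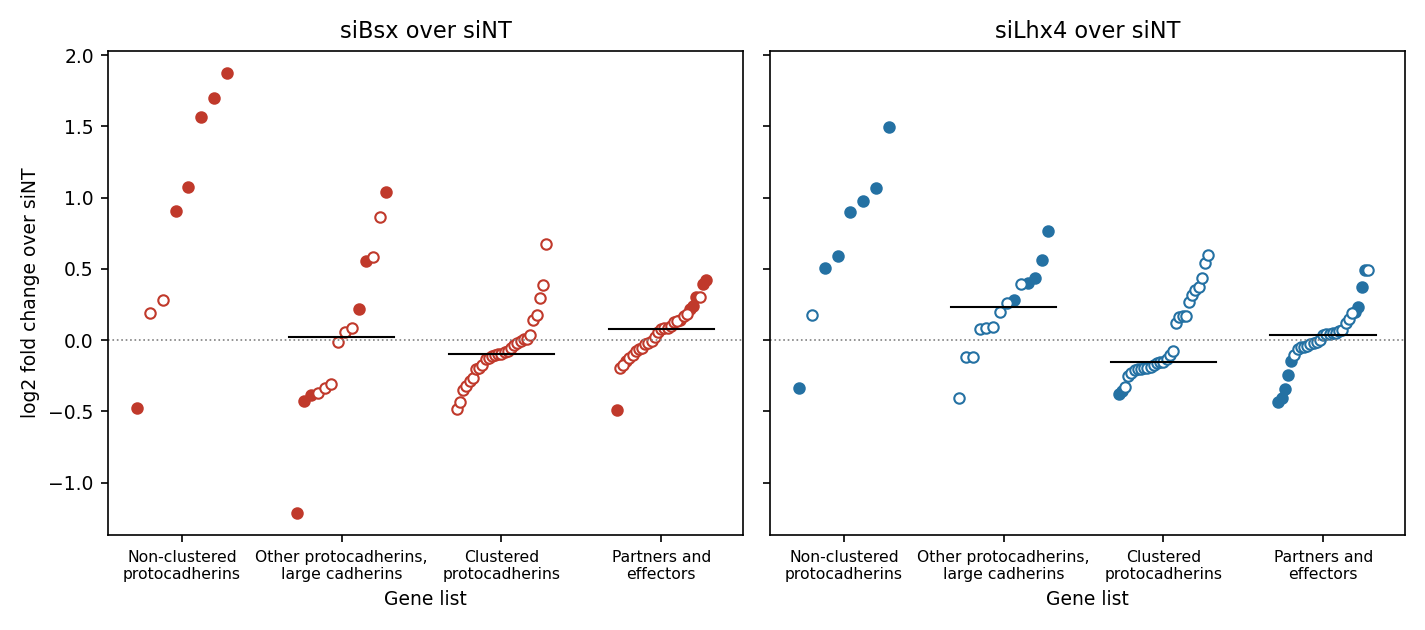
Log2 fold change over siNT of the tested genes in each of 4 lists, with siBsx (left) and siLhx4 (right). Filled symbols passed an adjusted p of 0.05, horizontal bars are the medians of the tested genes (none is drawn for the non-clustered protocadherins), and the clustered protocadherins have medians of -0.10 with siBsx and -0.15 with siLhx4.

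Partners and effectors of non-clustered protocadherins were 31 genes, of which 29 were tested, with log2 fold changes from -0.49 to 0.42 with siBsx and from -0.44 to 0.49 with siLhx4. With siBsx 6 passed higher and 2 lower, and with siLhx4 4 passed higher and 5 lower, with medians of 0.08 and 0.04 on the log2 scale. The shares of all genes tested were 7.59% higher and 9.61% lower with siBsx, and 8.07% and 9.59% with siLhx4. The N-cadherin gene Cdh2, whose product is a partner of Pcdh8 and Pcdh19, had means of 18489 normalized counts in siBsx, 11109 in siLhx4 and 14076 in siNT. In log2 terms it rose by 0.39 with siBsx and fell by 0.34 with siLhx4 by the authors' deposited tables, at DESeq2 adjusted p-values of 9.17e-14 and 2.5e-10. The neuronal transcription factor Mef2c likewise rose by 0.42 with siBsx and fell by 0.24 with siLhx4 in log2 terms by the authors' deposited tables.

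Among actin regulators, the WAVE complex subunits Cyfip2 and Nckap1 were called with siLhx4, at log2 fold changes of -0.40 and 0.20 in the authors' deposited table. The other subunits listed, Cyfip1, Abi1, Abi2, Wasf1, Wasf2, Wasf3 and Brk1, passed in neither comparison. Enah and Vasp, which extend actin filaments, rose by 0.49 and 0.23 with siLhx4 in log2 terms by the authors' deposited table. With siBsx they stood at 0.08 and 0.13 in the authors' deposited table and did not pass. Evl, on the same list, stood at -0.10 with siBsx and -0.11 with siLhx4 in the authors' deposited tables and passed in neither. Lamellipodin (Raph1), which recruits Enah and Vasp, fell by 0.49 with siBsx and fell by 0.44 with siLhx4 in log2 terms by the authors' deposited tables. The PP1α gene Ppp1ca and Set, partners of Pcdh7, passed in neither.

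Genes with a pair of log2 fold changes most like those of a protocadherin were sought among 11817 named and tested genes that averaged 50 or more normalized counts in each table, with all Pcdh symbols left out. The measure was the distance between the pairs, over the 2 comparisons. Of these, the nearest to Pcdh19 were the imprinted gene Magel2 (distance 0.34 on the log2 scale), the chemokine Cxcl14 (0.48) and the proteolipid Mal, also a Schwann cell marker (0.56). Nearest to Pcdh8 were Magel2 (0.26), the heat shock protein Hspa2 (0.27) and Tmem158 (0.33). Nearest to Pcdh17 were Hspa2 (0.18), Tmem158 (0.18) and the activity-regulated gene Arc (0.25). Among the protocadherins themselves, Pcdh8 and Pcdh17 lay 0.15 apart, nearer than any of the genes named here, and Pcdh8 lay 0.55 from Pcdh19. The SEs with siBsx and siLhx4 were 0.24 and 0.25 for Pcdh8, 0.13 and 0.14 for Pcdh17, and 0.27 and 0.27 for Pcdh19. Many of the distances are of this size, and both comparisons share siNT, so their order is uncertain. The protocadherins were chosen with these values in view. Magel2 and Mal stood at 42.4 and 40.5 normalized counts in siNT, so they met the minimum of 50 only through the knockdown groups.

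Markers of other cell types were set beside these values, since in cultures a changed share of cells and a changed amount of RNA per cell cannot be told apart. Summed group means over 10 pinealocyte markers were 527307 normalized counts in siBsx, 434775 in siLhx4 and 558216 in siNT. Tph1, the enzyme of the first step of serotonin synthesis, made up 78.7% of this sum in siBsx, 80.1% in siLhx4 and 81.6% in siNT. The other 9 summed to 112165 in siBsx, 86621 in siLhx4 and 102739 in siNT, so that the order of siBsx and siNT turned without Tph1. Among these 9, Sag had means of 25522 in siBsx, 13396 in siLhx4 and 14335 in siNT. Its rise with siBsx exceeds the gap between the siBsx and siNT sums, so the turned order rests on Sag. With siBsx 3 of the 10 passed higher and 5 lower, and with siLhx4 0 passed higher and 7 lower. Of all genes tested, 17.2% passed in either direction with siBsx and 17.7% with siLhx4. The 11 astrocyte markers summed to 12682 in siBsx, 18736 in siLhx4 and 14996 in siNT, and Gfap and Aqp4 were under 20 normalized counts in siNT. The 8 fibroblast markers summed to 1748 in siBsx, 3360 in siLhx4 and 2186 in siNT, with Lum listed at 0 in siNT. The 7 mural markers summed to 3581 in siBsx, 9889 in siLhx4 and 7054 in siNT, with Acta2 and Rgs5 under 20. The sums of these 3 lists were below siNT with siBsx and above siNT with siLhx4. Myh11 made up most of the mural sum, at 2953 normalized counts in siBsx, 8932 in siLhx4 and 6198 in siNT. Of the 7 mural markers, 3 were above siNT with siBsx and 3 were below siNT with siLhx4, against the direction of the sum. Of the 11 astrocyte markers, 2 were above siNT with siBsx and 4 were below siNT with siLhx4, likewise against their sum. Vim, the most abundant of them, had means of 4021 in siBsx, 6312 in siLhx4 and 4453 in siNT. Among the fibroblast markers 0 were below siNT with siLhx4, and Dcn was above it with siBsx, at 41.3 against 36.8.

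The 7 Schwann cell markers summed to 1457 normalized counts in siBsx, 1698 in siLhx4 and 1342 in siNT, with Mag under 20 in siNT. Among them Mal had means of 102.6 in siBsx, 129.6 in siLhx4 and 40.5 in siNT, and rose by 1.34 with siBsx and by 1.67 with siLhx4 in log2 terms by the authors' deposited tables. The 8 endothelial markers found, without Pecam1, summed to 796.3 in siBsx, 1077 in siLhx4 and 779.6 in siNT, with Cldn5 and Emcn under 20 in siNT. The Schwann and endothelial sums were thus above siNT with both siRNAs, as were the means of Pcdh8, Pcdh9, Pcdh10, Pcdh17 and Pcdh19. With siBsx, however, 3 of the 8 endothelial markers were above siNT and 5 below, and 0 of the 5 tested passed. Kdr had means of 249.0 in siBsx and 198.1 in siNT, a rise larger than the gap between the endothelial sums. Of the 5 tested Schwann markers only Mal passed with siBsx, higher. Means of Sox10 and Pmp22 were lower in siBsx (17.9 and 238.6) than in siNT (30.2 and 288.6). Sox10 was also below siNT with siLhx4, at 23.0, while the other 6 of the 7 Schwann markers were above it. With siLhx4, Plvap among the endothelial markers and Cnp and Mal among the Schwann markers passed higher. The 10 microglial markers summed to 522.4 in siBsx, 457.4 in siLhx4 and 466.4 in siNT, and 6 of them were under 20 in siNT. The part of other cell types in the protocadherin values was not tested.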

How the data were processed

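Total RNA libraries were prepared with a stranded kit after ribosomal RNA depletion, per the labels' protocols. The build was rn6, and the tools were DESeq2 1.16.1, featureCounts of Subread 1.5.2, STAR 2.5.4a and bcl2fastq 2.20.0.422, per the submitters' processing notes. The sources used here do not state the annotation, the strand setting or the handling of multi-mapped reads. Per the file headers and legends, the authors deposited, for each knockdown against siNT, a signal (the mean of counts divided by size factors over 6 libraries), the log2 fold change and the fold ratio. They also deposited p-values, unadjusted and adjusted by the Benjamini-Hochberg and Bonferroni methods, adjusted values being listed for 14876 genes whose means start at 19.8 (siLhx4) or 20.8 (siBsx) normalized counts. The siBsx table also holds the SE of the log2 value and a score, the authors' Wald statistic.

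The members and lists were chosen with earlier results of these data known. Library totals were not used here, so depth is known only through the means and SEs. No model was refitted, because values per library covered 14 other genes only, and the calls are the authors' DESeq2 calls at an adjusted p of 0.05. Group means follow from the deposited mean and fold change, and the siNT means from both tables had a median ratio of 1.00. The SE of siLhx4 changes was recovered by dividing the log2 value by the normal quantile that matches its p-value. The SE of siBsx over siLhx4 treats size factors as 1 and uses the siBsx dispersion. Predicted in the same way, SEs of the siLhx4 changes were a median of 1.01 times those recovered from p over 10067 genes. The 5th and 95th percentiles of this ratio were 1.003 and 1.014. Both comparisons thus imply nearly the same dispersion, so this checks the formula and is no independent check of the dispersion. Intervals at 95% use the normal quantile. Simulated data with known dispersions were used to test the group means, the SE formula and the Benjamini-Hochberg step. Recovering a dispersion from an SE, or an SE from a p-value, was not tested there, nor were the other steps. All members were described, list genes past the threshold could be named, and so could the 3 genes without a Pcdh symbol nearest to each of Pcdh19, Pcdh8 and Pcdh17. Python 3.11.15, pandas 2.3.3, scipy 1.17.1 and matplotlib 3.10.9 were used. Protein sequences were not analysed here. A gene of the Schwann cell list is not reported here.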

Additional observations from a re-analysis of the deposited data

How the results depend on the processing

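The siBsx count of 6 called protocadherins stayed at 6 at an adjusted p of 0.01, without a filter on the mean and when only genes averaging 50 or more normalized counts were tested. It was 5 with a minimum fold of 1.5 (without Pcdh1) and 5 with the deposited Bonferroni p (without Pcdh9), a setting added after seeing the data. Over all genes the share called with siBsx was 17.2% as reported, 12.1% at an adjusted p of 0.01, 8.35% without a filter, 18.8% with the minimum of 50, 3.73% with the minimum fold and 3.09% with Bonferroni. The siLhx4 count of 7 stayed at 7 with that minimum of 50, and was 6 at an adjusted p of 0.01 and without a filter (both without Pcdh9), 5 with the minimum fold (without Pcdh1 and Pcdh7) and 4 with the Bonferroni p (Pcdh1, Pcdh10, Pcdh17 and Pcdh19). The matching siLhx4 shares over all genes were 17.7% as reported, 12.2% at 0.01, 8.66% without a filter, 19.2% with the minimum of 50, 3.71% with the minimum fold and 2.94% with Bonferroni. The minimum of 50 could remove none of the 8 tested protocadherins. Their lowest means were those of Pcdh19, at 95.3 over siBsx and siNT and 77.7 over siLhx4 and siNT. In siNT alone Pcdh19 stood at 40.8. When the Wald statistic was read against a t distribution (4 degrees of freedom), 0 protocadherins passed with siBsx and 0 with siLhx4. In that setting 6 had an unadjusted p under 0.05 with siBsx and 6 with siLhx4, and 0.242% of all genes tested passed with siBsx and 0% with siLhx4, so the siLhx4 count of 0 says nothing particular of the protocadherins. That setting takes its degrees of freedom from the library count, although DESeq2's dispersions draw on other genes.

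Subtracting the median of all genes tested, at most 0.003 on the log2 scale, turned no sign of a fold change or of a siBsx to siLhx4 ratio. The siNT levels from both tables had ratios from 0.995 to 1.00 over the 9 genes, and the SE of the siBsx to siLhx4 ratio with the siLhx4 dispersion, also added later, was 0.990 to 0.995 times that given. No paired analysis was possible because the tables hold no values per library of these genes. For the same reason the edgeR fit and the fits without single libraries were not run, so it is not known whether 1 library decides any of these values.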
